A study of Mus musculus with 96 samples.

Results

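The genes described here encode the proteins of the cytosolic ribosome, measured as liver messenger RNA in 48 male F1 mice. Members were the genes whose symbol is Rpl or Rps followed by a number, with the suffixes a, x, y or l allowed, together with Rplp0, Rplp1, Rplp2 and Rpsa. Of 89 matching symbols, 5 are annotated pseudogenes and were left out, which gave 84 members among 38924 genes in the tables, 52 of the large and 32 of the small subunit. NOD/ShiLtJ, which develops autoimmune diabetes, was bred in both directions with PWK/PhJ, a line founded from wild mice. In the cross names NODxPWK and PWKxNOD the first strain is read as the mother's. Feed contained cholecalciferol (vitamin D3) at 0.009 g/kg on the normal and 0.05 g/kg on the high diet. Age is labelled 8 for the younger mice and 24 or 25 for the older ones without a unit, and the protocol in the labels gives the younger mice another age, so the groups are called younger and older. Cross, diet and age gave 8 groups of 6 mice. No group carries a transgene or an engineered allele, and every mouse is heterozygous for the parental strains on its autosomes.

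A cytosolic ribosome has a small subunit, which reads the messenger RNA and carries Rps proteins, and a large subunit, which joins amino acids and carries Rpl proteins. Most of these proteins are present once per ribosome, and cells make them in step with one another. Their messenger RNAs begin with a run of pyrimidines at the cap, through which mTOR signalling sets how well they are translated. They are short, abundant and often copied back into the genome, so that mammalian genomes hold many processed pseudogenes of them. The liver makes many ribosomes because it secretes most plasma proteins.

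Sequences bear on the values below in more than one way, and the first is the near identity of members and their retrocopies, since reads of such pairs are hard to assign. The stretches shown are 68 bases long, the length of 1 read, 5′ to 3′, from GENCODE M21 transcripts of the reference strain (GRCm38). They show neither the NOD nor the PWK allele. Capitals mark bases that differ between a member and the pseudogene or retrocopy that holds the most counts among its copies. Rps6, at chr4:86854660-86857412 on the minus strand, and Rps6-ps4, at chr2:75191073-75191822 on the minus strand, are identical over all 747 coding bases, and their first 68 coding bases are the same.
Rps6: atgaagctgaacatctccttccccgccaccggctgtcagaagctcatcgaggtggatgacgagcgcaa
Rps6-ps4: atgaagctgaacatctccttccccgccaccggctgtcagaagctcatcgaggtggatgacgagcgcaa
Rpl37, at chr15:5116645-5119140 on the plus strand, and Rpl37rt, at chr5:115102923-115110268 on the minus strand, differ at 1 of 291 coding bases.
Rpl37: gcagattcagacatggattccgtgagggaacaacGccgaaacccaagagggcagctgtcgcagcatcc
Rpl37rt: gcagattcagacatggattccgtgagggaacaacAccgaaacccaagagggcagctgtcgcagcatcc
Rpl19, at chr11:98026710-98030492 on the plus strand, and Rpl19-ps11, at chr8:19492936-19493526 on the plus strand, differ at 1 of 588 coding bases.
Rpl19: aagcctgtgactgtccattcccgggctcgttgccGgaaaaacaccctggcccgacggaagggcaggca
Rpl19-ps11: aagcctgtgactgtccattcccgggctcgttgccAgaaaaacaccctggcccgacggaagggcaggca
Rps29 and the processed pseudogene Gm14303 are identical over 168 coding bases, and Rps27 and its retrocopy Rps27rt over 252.

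The other is the pyrimidine run at the start of transcription. RefSeq starts (GRCm38.p6) were found for 64 of the 84 members. The letters CTTTCC stood between 15 bases before and 50 bases after the start, on the sense strand, in 18 of these 64 (28.1%). The same letters stood there in 3.46% of 27025 genes. Their reverse complement GGAAAG stood on the same strand in 1.56% of the members and in 3.55% of all genes. CCGGAAG, the core that ETS-family factors bind, stood on either strand within 250 bases before and 50 after the start in 40.6% of the members and in 9.93% of all genes. The lines below give 15 bases before to 15 after the start of 5 members with CTTTCC in capitals, which lie on chromosomes 11, 7, 16, 14 and 17.
Rpl38: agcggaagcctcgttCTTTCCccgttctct
Rpl28: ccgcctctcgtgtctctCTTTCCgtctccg
Rpl35a: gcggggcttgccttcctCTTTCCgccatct
Rpl15: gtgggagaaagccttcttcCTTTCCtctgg
Rps10: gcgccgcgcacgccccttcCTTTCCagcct
A match describes the letters in these windows only.

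The libraries held about 2026000 to 7481000 counts per mouse, with a median of 5274000. The hepatocyte list, led by Alb and Trf, held 95840 to 165100 CPM, counts scaled to the same total in every library, so the labelled tissue carried its defining transcripts. The exocrine pancreas list held at least 60 CPM in 10 mice, with a median of 34.3 and a highest value of 2271 CPM over all 48. Libraries did not keep strand, so reads of a member and of an overlapping or antisense gene cannot be told apart. The deposited values are expected counts, in which a read that matches several genes is shared out among them. A summed NOD and PWK count that is not a whole number therefore marks a member with shared reads. A whole number means that reads were given out practically undivided, not that they match no other gene.

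Reads were shared for most members. Of the 68-base windows of a member's principal transcript, a median of 52.8% also occurred in transcripts of other genes, up to 98.6% in Rps27. Summed counts were whole numbers (within 0.001) in all 48 mice for 6 members with a mean count of at least 20, among them Rpl8, Rps9, Rpl4, Rps27l and Rps21. Counts were whole in no mouse for 42 members. Over all genes of that mean count, 54.1% were whole in every mouse. Totals of Rpl4, Rpl8 and Rps9 thus rest on reads given undivided to those genes, although 10.1%, 5.74% and 28.7% of their windows occur in other genes. Totals of members such as Rps28 or Rpl24 depend on how reads were shared.

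**Figure D1:**
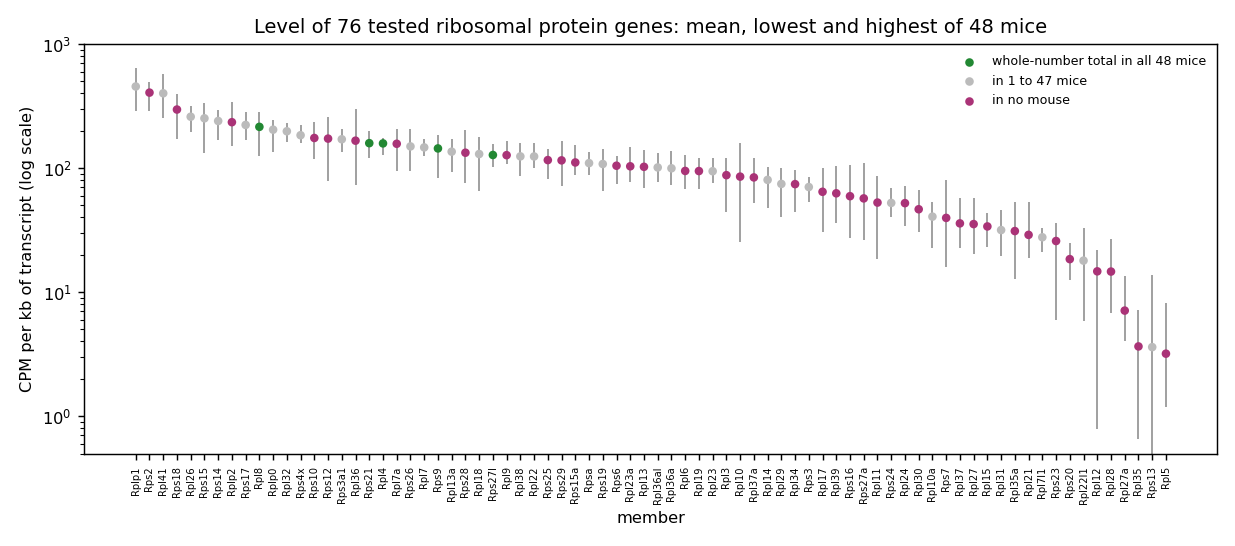
Level of 76 of the 80 tested members in CPM per kb of its principal transcript (log axis), with the mean (point) and the lowest and highest of 48 mice (line); colour gives the number of mice with a whole-number count. Means run from 454.4 in Rplp1 to 3.19 in Rpl5, and the line of Rps13 continues below the axis.

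Per length, the large-subunit stalk protein Rplp1 stood highest at 454.4 ± 80.8 CPM per kb (SD, n = 48). Rps2, at the messenger RNA entry of the small subunit, followed at 405.5 ± 44.1. Rpl41, a very short basic protein of the large subunit, had 400.4 ± 72.2 CPM per kb. The ranges of these 3 over the 48 mice overlapped, so their order is not beyond that spread. Rps18, Rpl26 and Rps15 came next with 296.2, 259.2 and 251.7 CPM per kb. The median over the 80 tested members was 101.7 CPM per kb.

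Among the lowest tested levels were those of Rpl5, Rps13, Rpl35, Rpl27a and Rpl28, at 3.19, 3.60, 3.65, 7.09 and 14.6 CPM per kb. For Rpl5, Rps13 and Rpl27a, annotated pseudogenes held 96.3%, 96.8% and 94.2% of the counts of gene and pseudogenes together. Pseudogenes led by Rpl28-ps1 held 88.2% of the counts of the Rpl28 family. Low values of these members stood beside high values of their copies. Copies of Rpl35 held only 4.599% of its family's counts. Yet 90.9% of its windows occur in other genes, and its total was a whole number in no mouse. Rps27 was listed at practically 0 and did not pass the low-count filter, while its retrocopy Rps27rt, with the same coding sequence, held 161.9 NOD and 161.9 PWK counts per mouse.

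The other stalk proteins, Rplp0 and Rplp2, which with Rplp1 recruit translation factors to the ribosome, stood at 203.8 and 234.2 CPM per kb. Rps27a, made as a fusion with ubiquitin, had 56.9 ± 17.98 CPM per kb (SD, n = 48). Among the paralogs of core genes, Rps27l had 127.4, Rpl36al 101.1, Rpl7l1 27.7 and Rpl22l1 17.9 CPM per kb. Rpl3l, known from striated muscle, averaged 0.50 counts per mouse, Rpl39l 0.25 and Rpl10l, known from testis, 0.0. These 3 did not pass the filter on low counts.

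**Figure D2:**
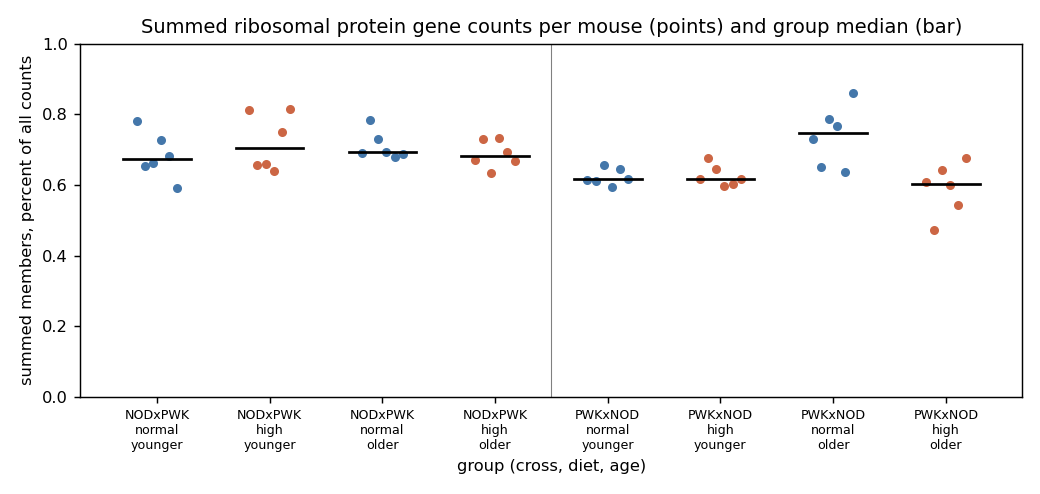
Summed counts of the 84 members as a percent of all counts, one point per mouse, by cross, diet and age, with the group median as a bar. The 6 older PWKxNOD mice on the high diet lie between 0.47% and 0.68%, overlapping the low end of the 6 on the normal diet (0.64% to 0.86%).

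All members together took 0.47% to 0.86% of the counts of a mouse. Group medians were lowest in older PWKxNOD mice on the high diet, at 0.60% (0.47% to 0.68%), and highest in older PWKxNOD mice on the normal diet, at 0.75% (0.64% to 0.86%). The ranges of those groups overlapped. Younger PWKxNOD mice had medians of 0.62% on both diets, and the 4 NODxPWK groups had medians between 0.67% and 0.70%. The 515 pseudogenes and retrocopies that shared windows with members added 0.23% to 0.37%. The ratio of small-subunit to large-subunit counts was between 0.81 and 0.90 in all mice, and its group medians were between 0.85 and 0.87. In bulk tissue, fewer cells of a type and less RNA per cell cannot be told apart.

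By age, 6 of the 80 tested members rose in older mice and none fell. Over all 11979 genes tested, 12% were called in either direction and 6.42% were called higher, and 7.5% of the members were called. The members' median log2 difference was 0.05, against 0.00 over all genes tested. Above 0 lay 63 of 80 members and 48.9% of all genes. Many members vary together across mice, as given below, so their signs are not independent. The called genes encode proteins of both subunits, among them Rps28 and Rps29 of the small subunit, and Rpl38, Rpl39 and Rpl41 of the large subunit.

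Rps28, a small protein near the messenger RNA exit of the small subunit, ranged from 20.4 to 55.4 CPM in 24 younger mice (median 31.8) and from 28.4 to 54.0 CPM in 24 older mice (median 40.6). The ranges overlapped widely, with the older median higher. The log2 difference was 0.31 ± 0.06 (SE), with an edgeR quasi-likelihood adjusted p of 0.000393, and it stayed past the threshold under all 17 alternatives. Rpl39, which lines the exit tunnel of the large subunit and lies on the X chromosome, had medians of 34.4 and 41.6 CPM, a difference of 0.29 ± 0.07 (adjusted p = 0.00643, edgeR). Rpl38, which is known from the patterning of the axial skeleton, rose from a median of 40.3 to 45.8 CPM (0.18 ± 0.04, adjusted p = 0.0048, edgeR).

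In younger and older mice Rpl41 had medians of 158.3 and 186.0 CPM and Rps29, a zinc-binding small-subunit protein, 41.3 and 47.9 CPM. The log2 differences were 0.19 ± 0.07 and 0.20 ± 0.07, with edgeR adjusted p of 0.0477 and 0.0497. Both calls were lost under 13 of 17 alternatives, with adjusted p of up to 0.165 for Rpl41 and 0.307 for Rps29, while those of Rpl38 and Rpl39 were lost under 3 and 4. In all 6 called genes the ranges of younger and older mice overlapped. Leaving out the 7 older mice labelled 25, all on the normal diet, left only mouse 3 in the older NODxPWK group on that diet. That fit is among the 17 alternatives counted here and for the other named members, but its calls are not compared on their own. Rps28 then differed by 0.30, and the members' median was 0.06. Without older PWKxNOD mouse 2 on the high diet, 10 members were called, the 6 among them. With pseudogene counts added to each member, 3 were called, 2 of them from the first 6.

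Markers of other cell types also differed by age. Of 7 bile duct genes 2 were tested and both rose, Spp1 by 0.72 (adjusted p = 6.67e-10, edgeR) and Sox9 by 0.83 (adjusted p = 2.92e-05, edgeR). The summed bile duct list, chiefly Spp1, held 24.1 to 40.2 CPM in younger and 29.7 to 122.6 CPM in older mice. Of 10 endothelial genes 3 were lower and 1 higher, with sums of 434.8 to 594.3 CPM in younger and 410.0 to 579.3 CPM in older mice. Of 15 hepatocyte genes 3 were lower, Cps1 and Ass1 by -0.42 each among them, and 2 higher. Of 4 tested lymphocyte genes Igkc was higher by 0.82. Their part in the member values was not tested.

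**Figure D3:**
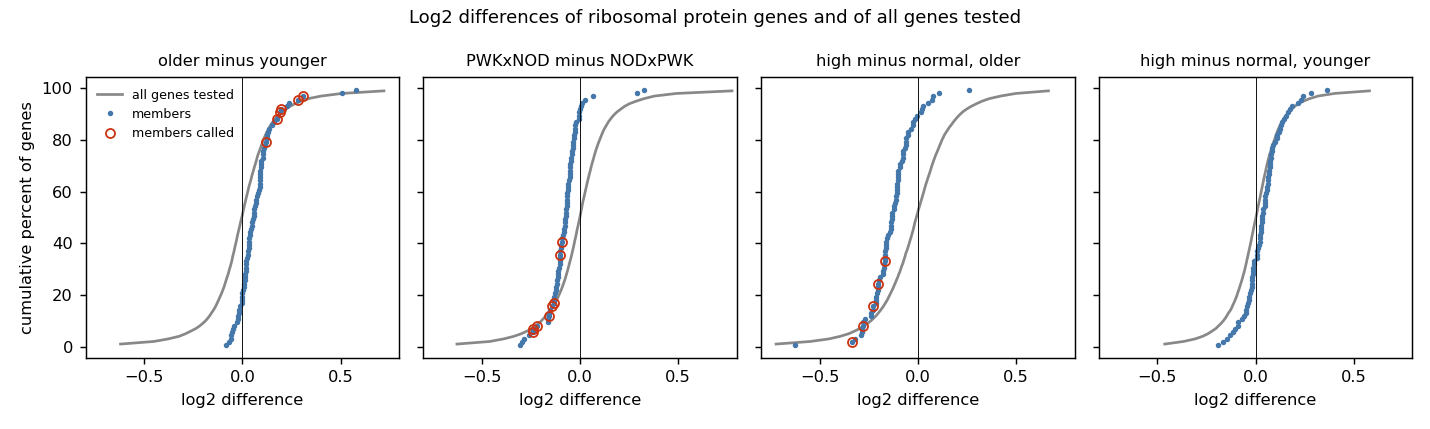
Cumulative percent of genes (vertical axis) against the log2 difference (horizontal axis) for the 80 members (points, called ones ringed) and all genes tested (line) in 4 comparisons. Member medians are 0.05 by age, -0.07 by cross, -0.13 by diet in older mice and 0.03 by diet in younger mice.

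By cross, 8 members were lower in PWKxNOD than in NODxPWK mice and none was higher. The background was 10.7% in either direction and 5.33% lower, and 8 of 80 members were called. Their median log2 difference was -0.07, against 0.00 over all genes, and 73 of 80 members lay below 0, against 50.6% of all genes. The called genes belong to both subunits, among them Rpl36a, Rpl32, Rpl24 and Rpl4 of the large one, and Rps28, Rps26 and Rps25 of the small one.

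Rpl36a, an X-linked large-subunit gene, ranged from 43.4 to 60.8 CPM in NODxPWK mice (median 51.5, n = 24) and from 34.97 to 66.37 CPM in PWKxNOD mice (median 44.2, n = 24). Its log2 difference was -0.24 ± 0.05 (adjusted p = 0.000352, edgeR). Males carry the dam's X chromosome, so for X-linked members this comparison is also one between a NOD and a PWK X chromosome. Rpl32 had medians of 107.1 and 96.8 CPM, a difference of -0.13 ± 0.03 (adjusted p = 0.00304, edgeR). Rpl4, with whole-number totals in all 48 mice, had medians of 252.7 and 237.2 CPM (-0.09 ± 0.03, adjusted p = 0.0235, edgeR).

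Medians of Rps28 were 38.2 CPM in NODxPWK and 31.8 CPM in PWKxNOD mice, and those of Rpl24 38.9 and 33.5 CPM. Rps26 had 106.1 and 95.7 CPM and Rps25 71.4 and 62.8 CPM. Rps28 and Rpl24 differed by -0.24 and -0.22, Rps26 by -0.16 and Rps25 by -0.14 on the log2 scale, with edgeR adjusted p between 0.00752 and 0.0438. Ranges of the crosses overlapped in each. In the same comparison 3 of 15 hepatocyte genes, Alb (-0.29), Fga (-0.30) and Fgb (-0.25), were lower in PWKxNOD mice and 1 was higher, and the summed list held 121200 to 165100 CPM in NODxPWK and 95840 to 139900 CPM in PWKxNOD mice. Of 10 endothelial genes 3 were lower, Lyve1 (-0.25), Tek (-0.18) and Pecam1 (-0.13). The part of these lists in the member values was not tested. Of 15 exocrine pancreas genes 7 were higher in PWKxNOD mice, and without the 10 mice with at least 60 CPM of that list 4 of the 8 members stayed called. Leaving out the mice labelled 25 left only mouse 3 in the older NODxPWK group on the normal diet. Rps28, Rpl24, Rps26 and Rps25 then differed by -0.24, -0.25, -0.14 and -0.14.

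By diet over both ages, no member was called by edgeR (background 0.342%), and DESeq2 called 1. An unadjusted p under 0.05 was found for 16 of 80 members, against 1323 of all 11979 genes tested. In the younger mice no member and no gene at all was called (background 0.0%). There 4 of 80 members had an unadjusted p under 0.05, against 573 of 11979 genes. DESeq2 called no member there. In the older mice 5 members were lower on the high diet and none was higher. There the background was 3.71% in either direction and 1.81% lower, and 6.25% of the members were called. The members' median was -0.13, against -0.01 over all genes, and 72 of 80 lay below 0, against 52.0% of all genes.

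**Figure D4:**
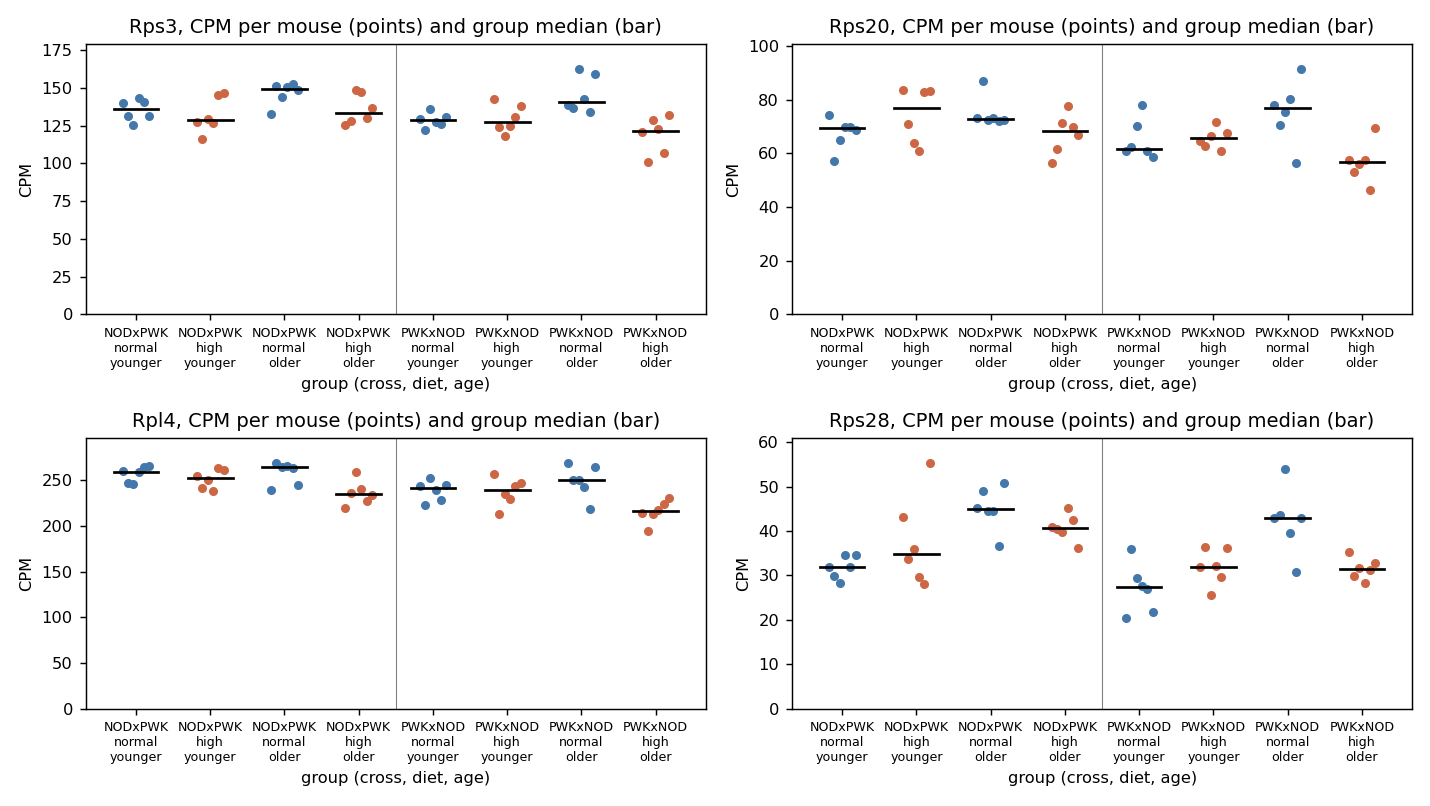
CPM per mouse (points) and group median (bar) of Rps3, Rps20, Rpl4 and Rps28 in the 8 groups. In older PWKxNOD mice the high-diet medians are 121.8, 56.6, 215.9 and 31.4 CPM, against 140.6, 76.7, 250.1 and 42.9 CPM on the normal diet.

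Rps3, at the messenger RNA entry of the small subunit and also known from DNA repair, ranged from 132.5 to 162.9 CPM (median 146.3) in 12 older mice on the normal diet and from 100.9 to 148.5 CPM (median 128.4) in 12 on the high diet. The log2 difference was -0.20 ± 0.05 (adjusted p = 0.00948, edgeR). Younger mice had medians of 131.1 and 128.6 CPM, a difference of -0.01 ± 0.05 that was not called. Only 0.27% of its windows occurred in another gene. Rpl4, a large-subunit protein that reaches into the exit tunnel, had medians of 256.8 and 225.5 CPM (-0.17 ± 0.04, adjusted p = 0.0104, edgeR). In older mice Rps20 had medians of 73.2 CPM (56.4 to 91.6) on the normal and 59.5 CPM (46.3 to 77.8) on the high diet. Rpl6 had 131.7 CPM (100.5 to 163.2) and 115.1 CPM (86.1 to 136.2). The ranges of the diets overlapped in each of these genes. Rps20 and Rpl6 had differences of -0.28 ± 0.07 and -0.23 ± 0.06, with edgeR adjusted p of 0.0105 and 0.0231. Of the 5 members tested with under 10% of windows in other genes, 3 were called in this comparison, and their median was -0.20. The 47 tested members with at least 50% of such windows had a median of -0.13, and 1 of them was called. The 33 under 50% had a median of -0.12, and 4 were called.

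The diet difference differed between the ages for 2 members, Rps28 among them, by edgeR's interaction test, with a background of 0.618% in either direction and 0.342% lower. For Rps28 the difference in older mice minus that in younger mice was -0.53 ± 0.13 (adjusted p = 0.0384). The call was lost under 8 of 17 alternatives, with a difference of -0.52 (adjusted p = 0.303, edgeR) without the mice with pancreas transcripts. Without the mice labelled 25, which left only mouse 3 in the older NODxPWK group on the normal diet, the difference was -0.51. Rps28 had medians of 44.1 CPM (30.9 to 54.0) on the normal and 35.65 CPM (28.4 to 45.25) on the high diet in older mice. In younger mice they were 29.6 CPM (20.4 to 36.02) and 32.9 CPM (25.7 to 55.4). No member was called for the interaction of cross with age (background 0.0501%) or of cross with diet (background 0.125%). An unadjusted p under 0.05 was found for 3 and 14 of 80 members, against 1066 and 1668 of 11979 genes. DESeq2 called no member in either interaction.

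Split by cross after these values had been seen, 10 members were lower on the high diet in older PWKxNOD mice, against a background of 4.35% in either direction and 2.16% lower, and none in older NODxPWK mice, against 0.184%. In NODxPWK mice 5 of 80 members and 1197 of 11979 genes had an unadjusted p under 0.05, and DESeq2 called no member. The member medians were -0.24 and -0.04. Rps3 ranged from 134.3 to 162.9 CPM (median 140.6) on the normal and from 100.9 to 131.9 CPM (median 121.8) on the high diet in PWKxNOD mice, and these ranges did not overlap. The log2 difference was -0.29 ± 0.07 (adjusted p = 0.00887, edgeR), and in NODxPWK mice it was -0.11 ± 0.07 (adjusted p = 0.645, edgeR). Without the mice with pancreas transcripts none of the 10 was called, and the PWKxNOD difference of Rps3 was -0.23 (adjusted p = 0.171, edgeR). Without the mice labelled 25 that difference was -0.33.

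Rps19, the gene most often mutated in Diamond-Blackfan anaemia, had medians of 72.9 CPM (66.2 to 90.03) and 56.7 CPM (41.5 to 72.3) in these PWKxNOD groups. Its difference was -0.41 ± 0.10 in PWKxNOD (adjusted p = 0.0156, edgeR) and 0.02 ± 0.10 in NODxPWK mice. In PWKxNOD mice it was -0.40 (adjusted p = 0.0961, edgeR) without the mice with pancreas transcripts and -0.33 (adjusted p = 0.0708, edgeR) without mouse 2 on the high diet. Without the mice labelled 25 it was -0.39. Also called with all mice were Rps20, Rps2, Rpl4, Rps14, Rps9, Rpl6 and Rps28. The difference between the crosses itself was called for no member (background 0.0334%), and DESeq2 called none either. It had an unadjusted p under 0.05 for 15 of 80 members, against 1598 of 11979 genes. For Rps19 it was -0.43 ± 0.14 (adjusted p = 0.203, edgeR).

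Without the 10 mice with pancreas transcripts no member was called in older mice, with a median of -0.12, and Rps3 differed by -0.18 (adjusted p = 0.199, edgeR). That fit held fewer mice, and the share of all genes called in it is not given. The 7 mice labelled 25 were all on the normal diet. Without them only mouse 3 was left in the older NODxPWK group on that diet, so calls of that fit are not compared. The members' median was then -0.14, and Rps3 differed by -0.20 and Rpl6 by -0.06. One older PWKxNOD mouse on the high diet had the lowest summed members, 0.47%. Without it the same 5 members were called in older mice, 3 of the 10 in older PWKxNOD mice, and Rps3 differed by -0.18 (adjusted p = 0.0192, edgeR). In older PWKxNOD mice the bile duct list, chiefly Spp1, held 55.5 to 122.6 CPM on the high diet. On the normal diet it held 29.7 to 58.99 CPM. Of its 2 tested genes there, Spp1 was higher by 0.93 (adjusted p = 0.00036, edgeR). Sox9 went the other way and was not called. The part of this list in the member values was not tested.

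Genes that act beside the members were compared between the diets in older mice. Of 24 translation factors and other messenger RNAs with a pyrimidine start, 1 was called, Rack1, a scaffold protein of the small subunit, lower by 0.20 on the log2 scale (adjusted p = 0.0193, edgeR). The median of that list was -0.08. None of 38 ribosome biogenesis genes, 22 genes of mTOR and Myc regulation, 76 nuclear genes of the respiratory chain, 77 mitochondrial ribosomal protein genes and 37 proteasome genes was called. Their medians were -0.04, -0.01, -0.05, 0.02 and -0.02. By age the mTOR and Myc list had 1 gene called higher, Eif4ebp1, and 1 lower, Rictor, and no translation factor was called.

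Members differed in how far they varied together across mice. Between pairs of members, deviations from group means had a median correlation of 0.13, above 0 in 65.98% of 3160 pairs. As deviations from group means over 48 mice, the log2 CPM of a member and the mean of the other members had a median correlation of 0.40, above 0.5 for 35 of 80 members and below 0 for 16. The highest values were those of Rps9 (0.84), Rps15 (0.81) and Rps2 (0.81). The lowest were those of Rpl39 (-0.31), Rps15a (-0.28) and Rpl12 (-0.26). The points share the library of a mouse, and shared reads tie members to their copies.

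Among genes that are not members, the 8 most like the member mean were Gm10275 (r = 0.83), Rpl28-ps1 (0.80), Gm11808 (0.77), Mrpl38 (0.76), Ndufa2 (0.76), Park7 (0.76), Uqcr10 (0.75) and Tomm6 (0.75), over 48 mice. Gm10275 and Rpl28-ps1 share windows with members. Fau, which encodes a ribosomal protein fused to a ubiquitin-like sequence but lies outside the symbol rule, had 0.71. Among translation factors, Eef2 had 0.63, Eef1a1 0.20 and Tpt1 -0.11.

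**Figure D5:**
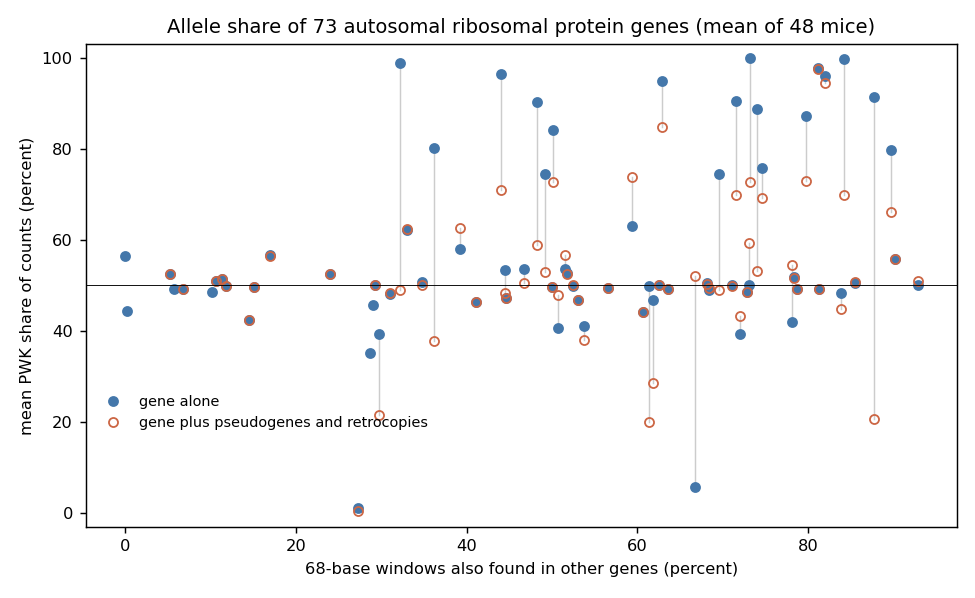
Mean PWK share of counts over 48 mice (vertical axis) against the percent of 68-base windows also found in other genes (horizontal axis) for 73 autosomal members, alone (filled) and with pseudogene and retrocopy counts added (open). Alone, 12 members lie under 10% or over 90%; with copies added, 3 do.

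The PWK allele share is the PWK count over the NOD and PWK count. Over 73 autosomal members with a mean count of at least 20, its median was 50.1%, and 48 lay between 40% and 60%. In 12 of 73 members (16.4%) it was under 10% or over 90%, against 2.115% of all 9362 genes tested. The PWK over NOD ratio was called for 47 members, 29 toward PWK and 18 toward NOD, against a background of 43.6% in either direction, 20.9% toward PWK and 22.8% toward NOD. In 5 members with under 10% of windows in other genes, the share lay between 44.4% and 56.4%.

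The 6 highest shares were those of Rpl19 (99.9%), Rps6 (99.6%), Rps29 (98.9%), Rpl24 (97.8%), Rpl34 (96.4%) and Rpl23a (95.97%). Between 32.2% (Rps29) and 84.2% (Rps6) of their windows occur in other genes. Rps6, the small-subunit protein that mTOR signalling leads to be phosphorylated, had 1.93 NOD and 475.4 PWK counts per mouse. Its copy Rps6-ps4, identical in the lines above, had 355.4 and 355.4. With all its copies the share of Rps6 was 69.8% ± 1.7 (SD, n = 48).

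Rps29 had 3.335 NOD and 232.3 PWK counts, while Gm14303 had 245.6 NOD and 6.18 PWK counts. Together they gave a PWK share of 48.9% ± 6.9 (SD, n = 48). Rpl19 had 0.1955 NOD and 370.3 PWK counts, and Rpl19-ps11, which differs from it at the base in capitals, had 222.8 and 225.8. The share of the Rpl19 family was 72.8% ± 1.7. Rpl24 and its copy Gm9385 both had PWK shares near 98%, with 4.59 NOD against 180.4 PWK counts in the gene and 3.89 against 156.2 in the copy.

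Toward the other end stood Rpl37 (1.07%), Rps9 (35.3%), Rps28 (39.3%), Rpl37a (39.35%) and Rps23 (40.6%). Of their windows, 27.3%, 28.7%, 72.1%, 29.7% and 50.7% occur in other genes. Rpl37 had 152.1 NOD and 1.37 PWK counts and Rpl37rt 284.2 and 0.0815, so the family share stayed at 0.40%. Rps9, whose totals were whole numbers in all 48 mice, had 35.3% ± 3.5 over them, a log2 ratio of -0.88 ± 0.03 (adjusted p = 1.02e-26, edgeR). Rps26 (62.2% ± 3.2) was higher for PWK and had 0.61% of its family counts in copies. Of its windows 33.1% occur in other genes, and its total was a whole number in 3 of 48 mice. With the copies added, shares under 10% or over 90% fell from 12 to 3 members, as the plot of shares against windows shows. Where the sequences match, reads of a member and of its copies cannot be told apart, so these shares describe how the counts were assigned.

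For some members the reads carried no strain information. NOD and PWK counts were equal, within 0.001 of the total, in all 48 mice for Rpl36 and Rps27a, and in 30 to 47 mice for 7 others. A share of 50% in these members is no measurement of balance. Neither the parent of origin (background 0.267%), nor age (0.705%), nor diet (0.0214%) was called for the ratio of any member by edgeR. By unadjusted p under 0.05 there were 6, 5 and 8 of 73 members, against 497, 589 and 436 of 9362 genes. By limma no member was called in any of them.

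The 4 X-linked members check the assignment, because a male carries only the dam's X chromosome. Rps4x had a PWK share of 0.22% ± 0.29 (SD) in 24 NODxPWK mice and 99.7% ± 0.29 in 24 PWKxNOD mice. For Rpl36a the shares were 0.28% ± 0.54 and 99.6% ± 0.84. Rpl39 had 9.76% ± 10.9 and 99.1% ± 1.3, and Rpl10 had 38.3% ± 8.1 and 53.1% ± 2.9. Counts given to the absent paternal X thus made up 42.6% in Rpl10 and 0.27% in Rps4x, beside a median of 1.68% in 262 other X-linked genes. Rpl10 has 91.9% of its windows in other genes, and its copies, led by Rpl10-ps3 with 486.7 NOD and 486.7 PWK counts, held 78.4% of the family's counts.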

How the data were processed

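Liver messenger RNA of 48 mice was sequenced as poly-A selected, unstranded, 68 bp single-end libraries on 2 flowcells, per the labels' protocols. The authors deposited expected counts per gene for the NOD and the PWK allele, not scaled to depth, and the names of the deposited tables give EMASE as the tool. The submitters' processing notes name CASAVA 1.7.0, Bowtie 1.1.2, GRCm38 and mm10, while the annotation and the version of EMASE are not given in the sources. Totals were the sum of both alleles, rounded to whole numbers.

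edgeR 4.0.16 in R 4.3.3 was run with filterByExpr (11979 genes), TMM factors, 8 group means and the robust quasi-likelihood test (two-sided), with Benjamini-Hochberg adjustment over all genes tested and a threshold of 0.05. Each main effect compares 24 with 24 mice. Allele ratios were fitted on both allele counts per mouse, with the mouse as a fixed effect, for the 9362 autosomal genes that averaged 20 counts or more. Symbols came from GENCODE M21, which matched 37607 of 38924 genes. Log2 CPM used a pseudocount of 0.5. Alternatives were DESeq2 1.42.0, limma 3.58.1 for the allele ratio, other scaling, no filter, a lane-set block and fits with mice left out. The fits were tested on simulated data. The mice of a group are separate animals, and no pair within a group had matching counts (chi-square per gene of 4.48 or more).

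The members and lists were chosen with earlier results of these data known. Named were up to 8 called members per direction and comparison by p, the 6 highest and lowest levels per length and allele shares, the X-linked, stalk, fusion and paralog members, the 8 genes most like the member mean, and up to 3 called genes per other list. A few members are not reported here.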

Additional observations from a re-analysis of the deposited data

Results flagged for a closer look

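Mice far from the other 5 of their group were sought among the summed members and the CPM of called members reported here, in 152 sets of 6 values. Chance gives such a mouse in about 1 in 20 groups, and 5 were found. Older PWKxNOD mouse 2 on the high diet had 64.2 CPM of Rps26 (next mouse 85.35). Older NODxPWK mouse 2 on the normal diet had 86.92 CPM of Rps20 (next mouse 73.27) and 133.2 CPM of Rps9 (next mouse 111.8). Younger PWKxNOD mouse 4 on the normal diet had 119.7 CPM of Rps14 (next mouse 132.5). Younger NODxPWK mouse 6 on the normal diet had 81.56 CPM of Rps25 (next mouse 74.36). The diet difference of Rps28 differed between the ages by the interaction test, by -0.53 on the log2 scale. That call was lost without the mice with pancreas transcripts (adjusted p = 0.303, edgeR). Without the mice labelled 25 the difference was -0.51.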

How the results depend on the processing

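The values below are numbers of members called, without the share of all genes called in the same fit. A changed number is therefore not shown to be particular to the members. The fit without the mice labelled 25 left only mouse 3 in the older NODxPWK group on the normal diet, so its numbers are not listed. By age, 6 became 3 with no low-count filter and 3 with pseudogene counts added. By cross, 8 became 5 with no filter and 4 without mice with pancreas transcripts. By diet over both ages, 0 became 1 with DESeq2. By diet in older mice, 5 became 8 with DESeq2, 3 with no filter, 9 with pseudogene counts added, and 0 without the pancreas mice. For diet by age, 2 became 0 with no filter, without the pancreas mice and without the barcode of lowest counts. By diet in older PWKxNOD mice, 10 became 4 with no filter, 0 without the pancreas mice and 2 without the lowest barcode. Leaving out each lane set, or the mouse with the lowest summed members, gave 3 to 10 by age, 4 to 9 by cross, 1 to 5 by diet in older mice, 0 to 3 for diet by age, 3 to 7 by diet in older PWKxNOD mice and 45 to 47 by allele. No called member that was refitted changed direction: 520 of the refitted values stayed past the threshold and 182 did not. All 182 belong to the age, cross and diet comparisons of totals, and none to the allele ratio. Both numbers include the fit without the mice labelled 25. The alternatives without pancreas mice, without the mouse of lowest summed members, with a haemoglobin covariate and with pseudogene counts, and the split by cross in older mice, were chosen after seeing the data.

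With the lane set as a replicate block, 4 members were called by age, 8 by cross, 5 by diet in older mice, 2 for diet by age, 10 by diet in older PWKxNOD mice and 49 by allele (limma). Deviations of mice correlated by -0.005 on average within lane sets, and 8 of 48 mice were closest to one of their own lane set, so the numbers mark shared lanes and do not pair mice. Members with few counts, such as Rps13, limit what a log2 difference can show.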
